A study of Mus musculus with 33 samples.

Results

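Whole mouse kidneys that carried 1 functional copy of Six2 were compared with wild-type kidneys at embryonic day 15.5 (E15.5) by RNA sequencing. The comparison used all libraries labelled heterozygous or wild type at that age, 16 of the 33 libraries of the series. Each specimen had been run in a first and in a second batch, and its 2 runs were summed. The sums gave 4 heterozygous specimens (replicates 1 to 4) and 4 wild-type specimens (replicates 5 to 8). These are 8 of the 24 specimens of the series, whose other specimens were kidneys at embryonic day 11.5 (E11.5): 6 wild-type, 5 heterozygous and 5 Six2 knockout. Each genotype held 1 female and 3 male specimens at E15.5. For the E15.5 kidneys the labels give the genotype as Six2 heterozygous or wild type and name no strain, no treatment and no other allele. The titles of the first-batch heterozygous libraries begin with "GCE" and those of the wild-type libraries with "Cont", and the labels do not explain the first abbreviation. They also do not say whether a specimen was 1 kidney, 1 embryo or a pool, so p-values measure the spread between these specimens.

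Six2 is a homeodomain transcription factor of the cap mesenchyme, the cells around the tips of the ureteric bud from which all nephrons arise. It keeps these nephron progenitors undifferentiated while Wnt signals from the bud induce part of them to form epithelium. The progenitors in turn secrete GDNF, which acts on the receptor RET in the bud tips and drives branching. The series title is about nephron progenitor proliferation, branching and nephron number in kidneys with 1 copy of Six2, so gene groups for these processes were among those examined.

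Total counts per specimen, in units of 1e+06, ran from 47.38 to 63.32 in heterozygous and from 46.81 to 65.11 in wild-type kidneys. Levels are given as counts per 1e+06 scaled counts (CPM), and log2 fold changes are heterozygous over wild type with their standard error (SE). The biological coefficient of variation between specimens was 0.0456. The labelled sex matched the counts of X- and Y-linked genes in 4 of 4 female and 12 of 12 male libraries. Mitochondrial genes held 0.571% to 0.852% of the counts in heterozygous and 0.645% to 0.973% in wild-type libraries. Marker genes of nephron progenitors, early nephrons, ureteric bud, stroma, podocytes and tubules were all detected.

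Six2 lay at chr17:85684277-85688274 on the minus strand of GRCm38. Its level was 5.85, 6.44, 6.43 and 6.75 CPM in the heterozygous kidneys and 11.4, 13.2, 11.6 and 12.4 CPM in the wild-type kidneys. The highest heterozygous value was below the lowest wild-type value. The heterozygous level was 52.5% of wild type (95% interval 48.3% to 57.0%), a log2 fold change of -0.93 ± 0.05 (SE, n = 4 and 4; adjusted p = 5.23e-06 by edgeR). An exact two-sided permutation test of log2 CPM gave p = 0.0286, the smallest that the 70 splits of 8 specimens allow. Of the 10 listed chromosomal neighbours of Six2, 8 were tested and 0 were called, beside 0.57% of all genes. Their log2 fold changes ran from -0.08 to 0.03. By edgeR, 1491 of all 18244 genes had an unadjusted p under 0.05.

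Across the genome, heterozygous kidneys differed from wild type in a small set of genes, most of them lower. Of 18244 genes tested, 104 (0.57%) passed an adjusted p of 0.05 and are called changed here, with 38 (0.208%) higher and 66 (0.362%) lower in heterozygous kidneys. Only 11 of the called genes differed by 2-fold or more, 9 of them lower and 2 higher, and 28 differed by 1.5-fold or more. The median log2 fold change was 0.00 over all genes tested, -0.40 over the called lower genes and 0.27 over the called higher genes. In 102 of the 104 called genes the values of the 2 genotypes did not overlap, against 891 (4.88%) of all genes tested. The genes were called from these same values, so their separation largely follows from the selection. All 104 kept their sign in each of the 16 alternative analyses, and 55 (36 lower and 19 higher) were called in each of the 8 analyses that left out 1 specimen. The alternatives used the same specimens or a part of them, so a kept sign is a description and not independent support.

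**Figure D1:**
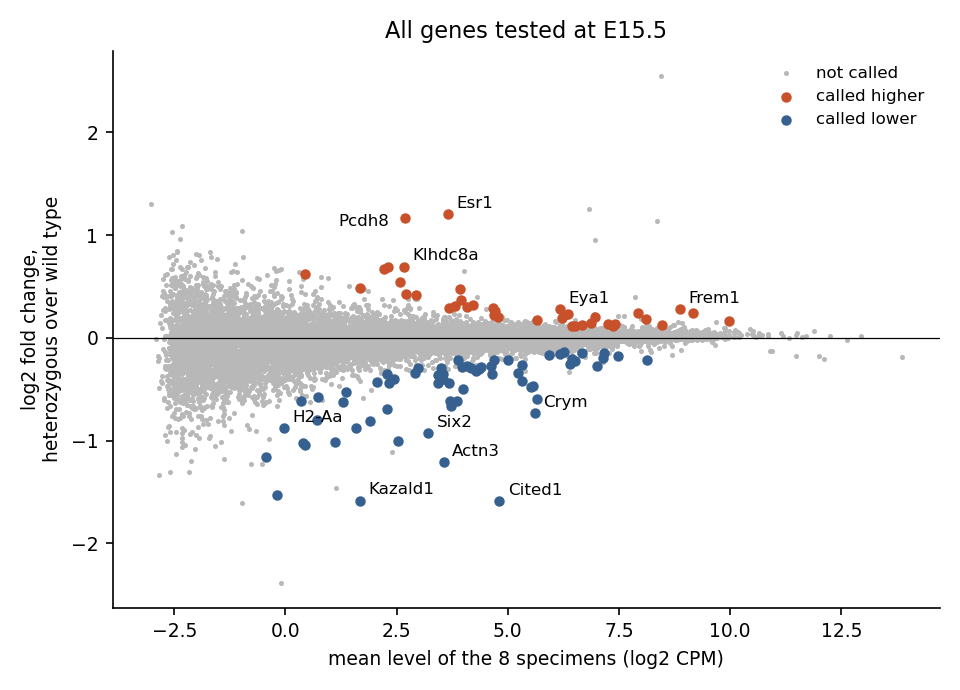
Log2 fold change of heterozygous over wild-type kidneys (vertical axis) against the mean level of the 8 specimens in log2 CPM (horizontal axis) for the 18244 genes tested. Red points are the 38 genes called higher and blue points the 66 called lower; Cited1 and Kazald1 lie lowest among the labelled genes and Esr1 and Pcdh8 highest.

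The promoters of a few of these genes are shown to give the sequence around their start sites. The windows are the 250 bases before the transcription start in RefSeq on GRCm38.p6, read 5′ to 3′ on the gene's strand. Such a window was found for 76 of the 104 called genes. Each was searched on both strands for TCANGTTNC (N is any base), a form of the MEF3 site known to be bound by Six2, and capitals mark a match. A match was found in 3 of these 76 genes (3.95%), against 887 of all 27025 genes of the table (3.28%). The 3 were Clrn1, 2610028E06Rik and Igfbp2, all called lower. Shown are Six2 and Cited1, the gene with the largest fall, neither with a match, and the first 2 of the genes with one.
Six2, chr17:85688255-85688504, minus strand: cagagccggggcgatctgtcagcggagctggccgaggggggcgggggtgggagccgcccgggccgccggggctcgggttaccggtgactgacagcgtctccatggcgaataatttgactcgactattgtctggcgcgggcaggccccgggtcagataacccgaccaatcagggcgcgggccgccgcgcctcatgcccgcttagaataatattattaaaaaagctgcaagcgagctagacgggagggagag
Cited1, chrX:102252182-102252431, minus strand: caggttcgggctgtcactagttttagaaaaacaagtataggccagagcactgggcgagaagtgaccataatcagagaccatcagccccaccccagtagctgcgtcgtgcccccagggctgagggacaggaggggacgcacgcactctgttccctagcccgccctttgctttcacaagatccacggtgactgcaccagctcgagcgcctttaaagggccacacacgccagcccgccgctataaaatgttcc
Clrn1, chr3:58885213-58885462, minus strand: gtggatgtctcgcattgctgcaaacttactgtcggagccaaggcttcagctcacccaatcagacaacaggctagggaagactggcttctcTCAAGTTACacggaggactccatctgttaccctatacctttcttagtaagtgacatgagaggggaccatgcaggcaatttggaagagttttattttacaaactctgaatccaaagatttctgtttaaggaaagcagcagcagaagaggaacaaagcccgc
2610028E06Rik, chr4:125922404-125922653, minus strand: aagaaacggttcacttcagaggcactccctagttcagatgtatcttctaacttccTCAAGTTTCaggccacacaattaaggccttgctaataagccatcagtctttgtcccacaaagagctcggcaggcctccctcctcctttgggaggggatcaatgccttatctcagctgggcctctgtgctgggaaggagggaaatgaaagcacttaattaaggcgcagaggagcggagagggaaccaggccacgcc
The matches began 160 bases before the start of Clrn1 and 195 bases before that of 2610028E06Rik, both on the gene's strand. The share with a match was near that of all genes, and a match is a description of letters, not of binding.

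The nephron progenitor markers held the gene with the largest fall. Cited1 (chrX:102247381-102252181) encodes a transcriptional coactivator without a DNA-binding domain of its own and marks the least committed cap mesenchyme cells. It stood at 13.7, 14.8, 13.5 and 14 CPM in heterozygous kidneys and at 43.4, 42.6, 41.5 and 40.9 CPM in wild-type kidneys. Every heterozygous value lay far below every wild-type value. The heterozygous level was 33.2% of wild type (31.3% to 35.3%), a log2 fold change of -1.59 ± 0.04 (adjusted p = 1.97e-09). Cited1 was thus further below wild type than Six2 itself, whose interval did not overlap that of Cited1.

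Crym (chr7:120186380-120202111) encodes mu-crystallin, which binds thyroid hormone in the cytosol. Its levels were 33.9, 37.3, 37.9 and 38.0 CPM in heterozygous and 61.5, 62.4, 61.3 and 59.6 CPM in wild-type kidneys, again without overlap. The heterozygous level was 60.0% of wild type (56.8% to 63.4%; log2 fold change -0.74 ± 0.04, adjusted p = 1.04e-06). Meox1, a homeobox transcription factor, was measured at 13, 13.4, 11.5 and 14.7 CPM against 19.4, 18.4, 17 and 19.0 CPM. The genotypes did not overlap, and the log2 fold change was -0.50 ± 0.06 (adjusted p = 0.00339). In the second-batch runs alone the value for Meox1 was -0.42, with an adjusted p of 0.116.

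The other progenitor genes that fell did so by smaller amounts. Traf1, an adaptor of tumour necrosis factor receptors, had a log2 fold change of -0.44 ± 0.05. Phf19, a Polycomb-like partner of the histone methyltransferase complex PRC2, had one of -0.42 ± 0.04. Dpf3, a subunit of BAF chromatin remodelling complexes, was called at -0.34 ± 0.06 (adjusted p = 0.025), but in only 3 of the 8 analyses without 1 specimen (adjusted p up to 0.099). Spock2, which encodes the proteoglycan testican-2, was high in both genotypes, at 247, 265, 262 and 263 CPM in heterozygous and 292, 305, 303 and 306 CPM in wild-type kidneys. Its fall was small and without overlap (log2 fold change -0.22 ± 0.03, adjusted p = 0.0031).

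Eya1 moved in the opposite direction. It encodes a phosphatase and transcriptional coactivator that partners Six2 and is needed for the progenitors to form. Its levels were 75.8, 80.9, 79.7 and 82.4 CPM in heterozygous and 62.7, 66.0, 65.6 and 68.4 CPM in wild-type kidneys. All heterozygous values were above all wild-type values, with a log2 fold change of 0.28 ± 0.03 (adjusted p = 0.00137). In the second-batch runs alone the size was the same, 0.28, with an adjusted p of 0.0643.

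Of the 26 tested genes of the nephron progenitor list, 7 were called lower and 1 higher, beside 0.362% and 0.208% of all genes. The list was chosen with earlier results of these data known, so these counts are a description. The median log2 fold change was -0.07, beside 0.00 over all genes. Over the list 10 values were positive and 16 negative. The remaining 18 genes were not called, 9 of them with positive and 9 with negative values. Meox2, the relative of Meox1, was at -0.31 (adjusted p = 0.062), and Uncx, Robo2 and Capn6 were at -0.14, -0.13 and -0.12. Sall1, a zinc finger transcription factor of the progenitors, was at 0.00 ± 0.06, Osr1 at 0.10 ± 0.06 and Itga8, the integrin subunit through which the cap receives nephronectin, at 0.03 ± 0.02. Gdnf was at 0.02 ± 0.04, with 95% bounds of 94.9% and 108% of wild type, and Bmp7, a survival factor of the progenitors, at 0.03 ± 0.03. The summed level of the list, which does not hold Six2, was 2212 to 2381 CPM in heterozygous and 2423 to 2510 CPM in wild-type kidneys. Without Spock2, an alternative chosen after seeing the data, it was 1966 to 2118 against 2120 to 2205 CPM. Both sums hold Cited1 and Crym, and no sum without the called members was made, so the separation may rest on those members. These sums come from whole kidneys, in which fewer cells of a type and less RNA per cell cannot be told apart.

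**Figure D2:**
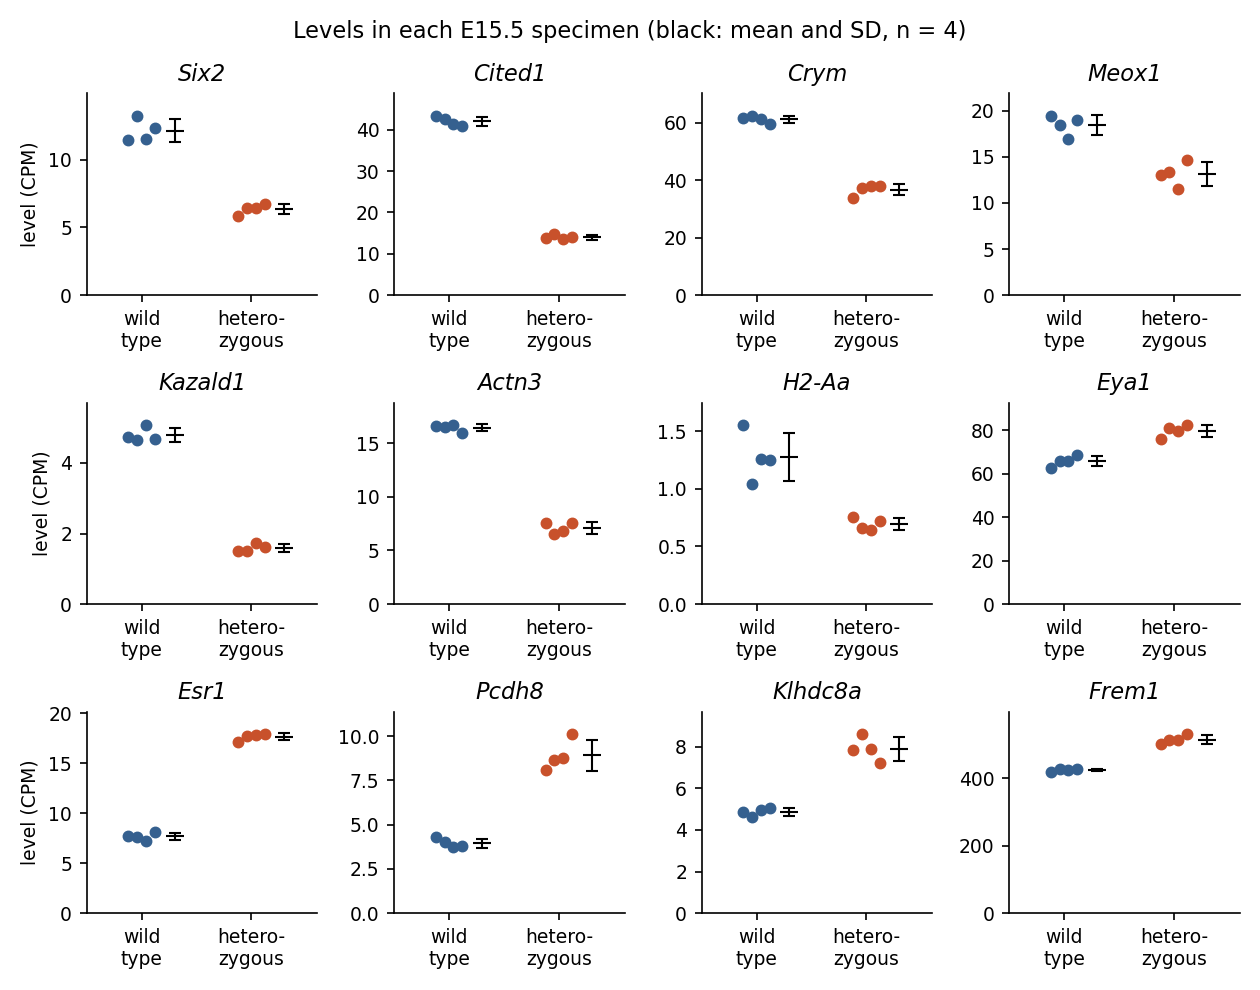
Level of 12 genes in CPM (vertical axes, starting at 0) in each of the 4 wild-type (blue) and 4 heterozygous (red) kidneys at E15.5, with the mean and SD in black. In every panel the genotypes are separate; the gap is wide for Cited1, Kazald1 and Esr1 and narrow for Eya1 and Frem1.

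Actn3 (chr19:4861216-4877909), the alpha-actinin of fast muscle fibres, stood at 7.55, 6.52, 6.77 and 7.55 CPM in heterozygous and 16.6, 16.5, 16.7 and 15.9 CPM in wild-type kidneys. The groups were far apart, and the heterozygous level was 43.2% of wild type (39.8% to 46.9%; log2 fold change -1.21 ± 0.05, adjusted p = 5.81e-07). Trim63, which encodes the muscle ubiquitin ligase MuRF1, was at 1.96, 2.00, 2.25 and 2.33 CPM against 3.34, 4.10, 4.03 and 4.21 CPM (log2 fold change -0.88 ± 0.10). Casq1, the calcium-binding protein of the muscle sarcoplasmic reticulum, was at 1.44, 1.14, 1.08 and 1.08 CPM against 2.02, 2.00, 2.22 and 2.07 CPM (log2 fold change -0.81 ± 0.12). In the second-batch runs alone Casq1 was at -0.52 with an adjusted p of 0.687. The skeletal muscle and cartilage marker list holds none of Actn3, Trim63 and Casq1. Of its 11 tested members 1 was called, beside 0.57% of all genes. Its median was -0.01 and its summed level was 104.8 to 162.6 CPM in heterozygous and 138.2 to 147.9 CPM in wild-type kidneys. Its defining muscle regulators were scarce, with Myod1 at a mean of 0.183 and 0.205 CPM and Myog at 0.357 and 0.807 CPM, the latter with an adjusted p of 0.062. Over the list 5 log2 fold changes were positive and 6 negative. Among the positive ones, Ttn was at 0.65 ± 0.35 (means 20.3 and 12.1 CPM) and Acta1 at 0.35 ± 0.29. Tnnt3, Myh3 and Des were at 0.33 ± 0.10, 0.21 ± 0.34 and 0.06 ± 0.04. These 5 were not called.

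The called member of that list was Col2a1, the main collagen of cartilage. It was at 34.8, 40.9, 40.3 and 43.7 CPM in heterozygous and 61.0, 60.7, 59.4 and 60.1 CPM in wild-type kidneys, without overlap (log2 fold change -0.60 ± 0.05, adjusted p = 8.81e-05). Col11a2, a minor cartilage collagen, fell as well, with a log2 fold change of -0.66 ± 0.06 and levels of 9.21 to 11.4 against 14.9 to 18 CPM. Acan, the cartilage proteoglycan aggrecan, was at -0.01 and was not called (means 1.76 and 1.75 CPM).

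Kazald1 (chr19:45075241-45079289) encodes a secreted protein with a Kazal domain, related to the insulin-like growth factor binding proteins. Its levels were 1.49, 1.50, 1.74 and 1.63 CPM in heterozygous and 4.73, 4.65, 5.08 and 4.69 CPM in wild-type kidneys. The heterozygous level was 33.3% of wild type (29.3% to 37.9%; log2 fold change -1.58 ± 0.08, adjusted p = 2.27e-06), a fall of the same size as that of Cited1. Clrn1, the membrane protein clarin-1, stood at 3.3, 3.67, 4.06 and 4.26 CPM against 6.98, 8.75, 7.50 and 7.57 CPM (log2 fold change -1.01 ± 0.07). Dync1i1, a dynein intermediate chain, had a log2 fold change of -0.81 ± 0.08, and 2610028E06Rik, a gene of unnamed function, one of -0.69 ± 0.06.

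Siglecg, an inhibitory receptor for sialic acids on lymphocytes, averaged 0.883 CPM against 1.83 CPM (log2 fold change -1.05 ± 0.12). With the second-batch runs alone it was at -0.73, with an adjusted p of 0.169. Sstr3, a somatostatin receptor, was at 0.869 against 1.77 CPM (-1.02 ± 0.17), and Draxin, an axon guidance protein, at 1.93 against 2.98 CPM (-0.62 ± 0.10). Both were called in only 2 of the 8 analyses without 1 specimen, with adjusted p up to 0.063 and 0.0898.

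Genes of the major histocompatibility complex (MHC) class II present antigen on macrophages, dendritic cells and B cells. Of the 7 tested members of their list 3 were called lower, beside 0.362% of all genes. The log2 fold changes of these 7 ran from -1.02 to -0.21 with a median of -0.36. This list, too, was chosen with earlier results of these data known. The list does not hold all class II genes. Of those outside it in the same region, H2-DMb2 was at 0.06 ± 0.05 (means 9.64 and 9.24 CPM), H2-Eb2 at 0.21 ± 0.36 and H2-Oa at -0.03 ± 0.24, and none was called. H2-Eb1 was at 1.7, 1.5, 1.35 and 1.15 CPM in heterozygous and 3.04, 3.16, 2.63 and 2.79 CPM in wild-type kidneys (-1.02 ± 0.12, adjusted p = 0.0018). H2-Aa had a log2 fold change of -0.88 ± 0.15 (adjusted p = 0.0188) and H2-Ab1 one of -0.29 ± 0.05 (adjusted p = 0.0321). H2-Eb1 was called in 8 of the 8 analyses without 1 specimen, H2-Aa in 2 (adjusted p up to 0.0885) and H2-Ab1 in 0 (up to 0.127).

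Cd74, the invariant chain of class II molecules, was at -0.47 with an adjusted p of 0.36, and Ciita, their transcriptional activator, at -0.36 with an adjusted p of 0.21. The summed level of the 7 listed genes was 16.5 to 18.5 CPM in heterozygous and 22.7 to 24.1 CPM in wild-type kidneys. The macrophage list had 0 of 16 tested members called, beside 0.57% of all genes. Its median was -0.06, and its summed levels of 148.4 to 156.4 and 151.7 to 165.4 CPM overlapped. Its receptor Csf1r averaged 22.2 and 23.0 CPM. Six2 and the class II genes share chromosome 17, on which the called class II genes lie at chr17:34257689-34316674. That chromosome held 7 of the 104 called genes, 6.73% of them, against 4.62% of all genes tested. Six2 itself and the called class II genes are among those 7. Whether other alleles on it differed between the genotypes was not tested.

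Genes called higher were fewer and mostly changed less. The largest rise was in the counts of Esr1, the gene of estrogen receptor alpha (chr10:4611593-5005614). They were 17.2, 17.7, 17.9 and 17.9 CPM in heterozygous and 7.75, 7.64, 7.20 and 8.12 CPM in wild-type kidneys, far apart. The heterozygous level was 230% of wild type (214% to 248%; log2 fold change 1.20 ± 0.05, adjusted p = 2.39e-07; exact two-sided permutation p = 0.0286). Gene-level counts do not show on which part of the gene the reads fell, and the labels do not say whether the allele behind the "GCE" titles carries estrogen receptor sequence. The counts are therefore not shown to be transcripts of the native Esr1 gene, and their source was not tested. Of the 10 tested genes of an estrogen response list, 0 were called, beside 0.57% of all genes, and the median was 0.02. Pgr, the progesterone receptor, was at 0.13 and Greb1, an early target of the receptor, at 0.02.

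Pcdh8, a protocadherin that takes part in cell adhesion, was at 8.09, 8.66, 8.77 and 10.1 CPM in heterozygous and 4.28, 4.03, 3.71 and 3.81 CPM in wild-type kidneys. The heterozygous level was 224% of wild type (202% to 249%; log2 fold change 1.16 ± 0.07, adjusted p = 5.99e-06). These 2 genes were the only called genes that were 2-fold higher or more. Klhdc8a, a protein with kelch repeats, was at 7.83, 8.62, 7.89 and 7.23 CPM against 4.88, 4.63, 4.94 and 5.07 CPM (log2 fold change 0.69 ± 0.06). Prune2 had the same log2 fold change, 0.69 ± 0.08, and Adra1a, the alpha-1A adrenergic receptor, one of 0.67 ± 0.07. For each of these 5 genes the genotypes did not overlap, and each was called in all 16 alternative analyses.

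Smaller rises were found for a mixed set of signalling and RNA-binding genes. Rbm24, an RNA-binding regulator of splicing, was at 0.54 ± 0.07, and Fgf1, a growth factor, at 0.47 ± 0.04, with 17.3, 18, 18 and 17.6 CPM against 12.9, 12.3, 12.9 and 13 CPM. Raet1e, a ligand of an activating receptor on natural killer cells, was at 0.43 ± 0.06, and its counts are uncertain because near-identical family members can share reads. Ntrk3, the receptor of neurotrophin-3, was at 0.41 ± 0.06, Fam19a2, a small secreted protein, at 0.37 ± 0.05, and Cap2, a regulator of actin, at 0.30 ± 0.04. Cyp26b1, which breaks down retinoic acid, was at 21.1, 21.1, 19.3 and 21.2 CPM against 16.5, 16.2, 15.5 and 17.9 CPM (0.32 ± 0.05, adjusted p = 0.0156). Cyp26b1, the bHLH factor Tcf23 (0.48 ± 0.08) and Nap1l2 (0.62 ± 0.11), which encodes a nucleosome assembly protein, were each called in only 2 of the 8 analyses without 1 specimen. Without 1 specimen their adjusted p reached 0.0938, 0.0912 and 0.142 in that order. The genotypes overlapped for Nap1l2 alone of these genes. In the second-batch runs alone Tcf23 was at 0.30 (adjusted p = 0.782), Cyp26b1 at 0.34 (0.0651) and Nap1l2 at 0.67 (0.492), and none was called. Rbm24, Raet1e, Ntrk3 and Cap2 lost their call there at log2 fold changes of 0.57, 0.43, 0.39 and 0.30.

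Listed genes of the ureteric bud, on which the progenitors act, were not called. With 0.57% of all genes called, a list of this size would be likely to hold 0 calls. Of 14 tested tip genes 0 were called, 12 had positive log2 fold changes, and the median was 0.10. Ret was at 64.0, 74.2, 64.3 and 77.6 CPM in heterozygous and 62.9, 67.9, 58.8 and 60.9 CPM in wild-type kidneys, which overlapped (0.16 ± 0.04, adjusted p = 0.237). Wnt11, a ligand that the tips produce in response to RET, was at 0.12 ± 0.04 (adjusted p = 0.378). The RET co-receptor Gfra1 was at -0.03 ± 0.03, and Etv4 and Etv5, transcription factors downstream of RET, were at 0.05 ± 0.04 and 0.03 ± 0.04. Of 17 tested genes of the ureteric trunk and collecting duct 0 were called, with 15 positive and a median of 0.06. Wnt9b, the bud-derived inducer of nephrons, was at 0.09 ± 0.04, with 95% bounds of 99.8% and 114% of wild type.

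Early nephron genes, which mark the induced progeny of the cap, also gave 0 calls among 22 tested, beside 0.57% of all genes. Their median was 0.06. Wnt4, which drives the transition to epithelium, was at 72.7, 76.3, 71.7 and 76.4 CPM against 68.0, 71.8, 65.9 and 73.6 CPM, which overlapped (0.09 ± 0.04, adjusted p = 0.519). Pax8, Lhx1 and Fgf8, which act in the renal vesicle, were at 0.05 ± 0.04, -0.05 ± 0.06 and 0.05 ± 0.07. Ccnd1, the G1 cyclin D1, was at 498, 513, 513 and 527 CPM in heterozygous and 466, 493, 474 and 478 CPM in wild-type kidneys. Its genotypes did not overlap, and at 0.10 ± 0.02 it missed the threshold by edgeR (adjusted p = 0.0809) and passed it by DESeq2 (adjusted p = 0.00713). The summed level of the early nephron list was 1604 to 1660 CPM against 1505 to 1594 CPM. Without Ccnd1, an alternative chosen after seeing the data, it was 1091 to 1147 against 1031 to 1101 CPM, which overlapped.

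Proliferation genes were measured precisely and none of the 25 tested was called, beside 0.57% of all genes. Their log2 fold changes ran from -0.03 to 0.06 with a median of 0.02, and 21 were positive. Mki67, the marker of cycling cells, was at 672, 673, 621 and 718 CPM in heterozygous and 640, 664, 642 and 693 CPM in wild-type kidneys, which overlapped (0.02 ± 0.04). Its 95% bounds were 96.1% and 107% of wild type. Top2a, the topoisomerase of dividing cells, was at 0.04 ± 0.02 and Pcna, the DNA replication clamp, at 0.01 ± 0.02. The cell cycle inhibitor Cdkn1a was at 0.09 ± 0.07. These are levels over all cells of the kidney, not of the progenitors alone.

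Among the transcription factors shared by several kidney lineages, Pax2 was at 16.6, 18.3, 17.6 and 16.4 CPM against 19.0, 19.6, 19.5 and 21.3 CPM, without overlap, and was not called (-0.21 ± 0.05, adjusted p = 0.128). Wt1 was at -0.03 ± 0.03 and the stromal factor Foxd1 at -0.04 ± 0.05. Renal stroma, podocyte, endothelium, proximal tubule, and loop of Henle and distal tubule lists had 0 members called each, beside 0.57% of all genes. Their medians were 0.03, 0.02, 0.03, 0.05 and -0.01 in that order. Of the 20 tested hypoxia and glycolysis genes 19 had positive values, with a median of 0.06. The summed level of that list was 4300 to 4469 CPM in heterozygous and 4117 to 4228 CPM in wild-type kidneys, without overlap. Of its members 1 was called. That was P4ha1, a collagen prolyl hydroxylase, at 0.12 ± 0.02 (adjusted p = 0.0416), which was called in 0 of the 8 analyses without 1 specimen (adjusted p up to 0.204). The erythroid list had 1 of 12 tested members called and a median of -0.10, with 5 positive and 7 negative values. Its summed level was 989 to 1219 CPM in heterozygous and 908 to 985 CPM in wild-type kidneys, without overlap. Its called member, Hbb-bs, an adult beta globin, was higher at 0.24 ± 0.04 (adjusted p = 0.0354). Hbb-bs was called in 4 of the 8 analyses without 1 specimen (adjusted p up to 0.132). Its counts can be shared with the near-identical Hbb-bt, which was at 0.21 and not called. The other positive members, Hba-a1, Hba-a2 and Alas2, were at 0.23, 0.20 and 0.20 and were not called. The negative members stood at lower levels, the highest of them Slc4a1 at -0.22 ± 0.27 (means 11.4 and 13.3 CPM). Alb, the liver marker, averaged 3.10 and 7.36 CPM with an adjusted p of 0.75.

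Over the 25 lists, which are described here by counts alone, 343 genes were tested and 14 called (4.08%), beside the 0.57% of all genes, and 8 of the 14 were in the nephron progenitor list. The lists were chosen with earlier results of these data known, so their share is a description. No member was called in the lists of primitive globins, adrenal and gonad, neurons, sympathetic chain and glia, liver and gut, p53 targets, Wnt/beta-catenin targets, FGF/ERK feedback or immediate-early genes. Axin2, the common readout of Wnt signalling, was at -0.06 with an adjusted p of 0.72.

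**Figure D3:**
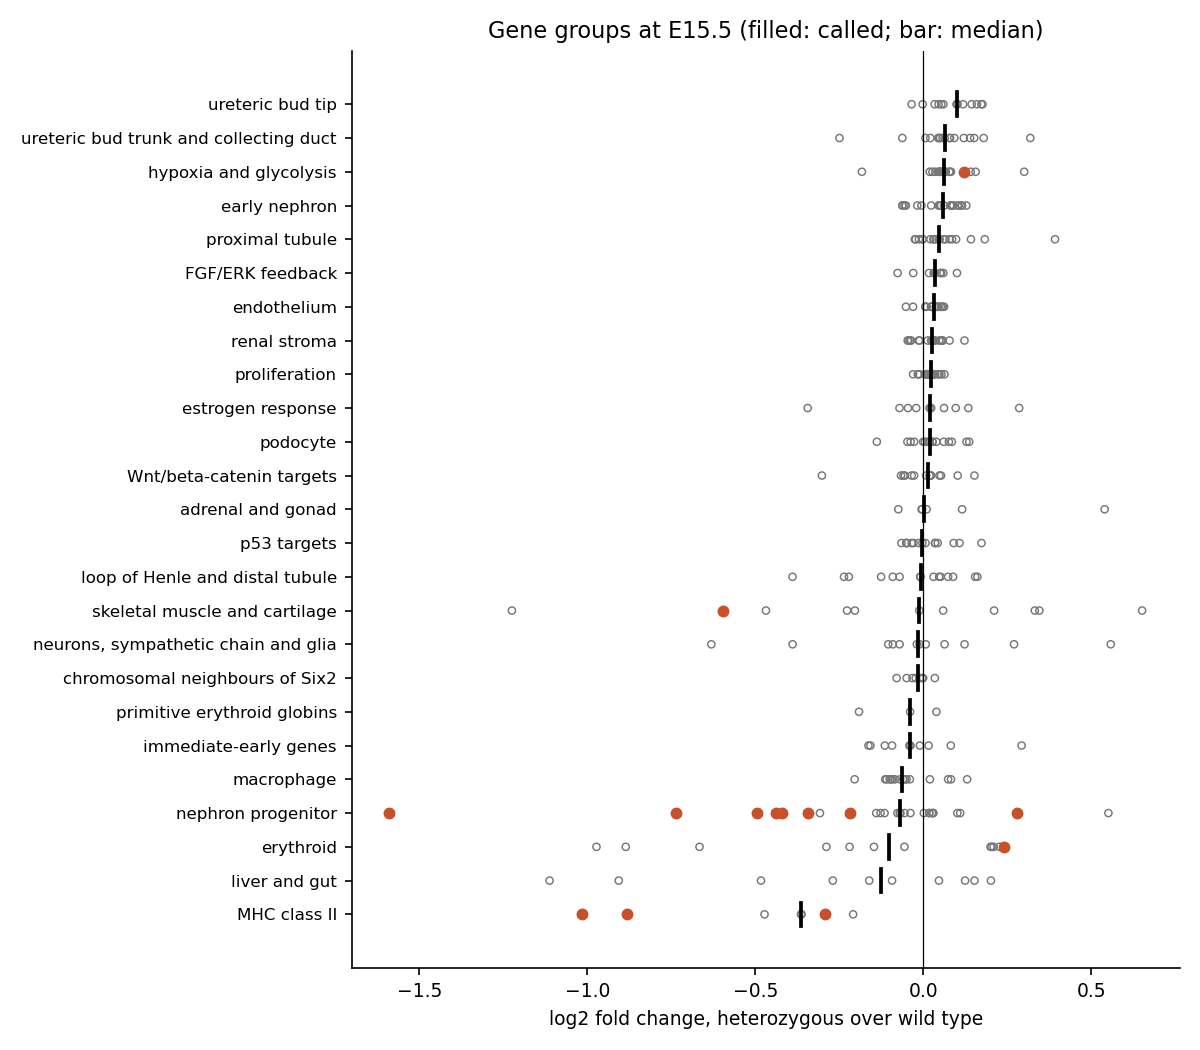
Log2 fold change of heterozygous over wild-type kidneys (horizontal axis) for each tested member of the 25 gene lists (rows). Filled points passed an adjusted p of 0.05, open points did not, and black bars are medians: the MHC class II list has the lowest median (-0.36), and the nephron progenitor list has 8 filled points on both sides of 0.

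Some called genes were neighbours in the genome. On chromosome 2, Cutal (chr2:34874396-34892132), Phf19 (chr2:34893757-34914026) and Traf1 (chr2:34941750-34961772) fell by similar amounts, with log2 fold changes of -0.44, -0.42 and -0.44. The other 9 genes tested within 200 kb of them were not called, with log2 fold changes from -1.18 to 0.18, both ends in genes under 1 CPM. Psmd5, on the strand opposite to Cutal and overlapping it, was at -0.06. On chromosome 19, Kazald1 and Sema4g, a semaphorin guidance molecule, lie 71.8 kb apart, and Sema4g was at 10.6, 10.1, 10.2 and 9.06 CPM against 14, 12.7, 12.5 and 13.7 CPM (-0.40 ± 0.05, adjusted p = 0.00293). The other 9 genes tested within 200 kb of this pair, Pax2 among them, were not called. Their log2 fold changes ran from -0.30 to 0.04. Pdzd7, Pax2 and Sfxn3 were at -0.28 ± 0.08, -0.21 ± 0.05 and -0.19 ± 0.05, and Lzts2 and Mrpl43 at 0.03 ± 0.03 and 0.04 ± 0.03.

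Actn3 and Ctsf, the gene of the lysosomal protease cathepsin F, end 298 bases apart on opposite strands. Ctsf was at -0.22 ± 0.04 (adjusted p = 0.032), and the other 18 genes tested within 200 kb of the pair were not called. Whether counting used the strand is not given in the sources used here, so reads that run past an end could be assigned to the wrong gene of such a pair. Rbm24 and Cap2, both called higher, lie 70.8 kb apart on chromosome 13, and the other 5 genes tested within 200 kb of them were not called. H2-Ab1, H2-Aa and H2-Eb1 lie close together on chromosome 17. Of the other 12 genes tested within 200 kb of them, 1 was called, Col11a2 at 191 kb. Cutal, Sema4g and Ctsf lay outside the rule for named genes and were chosen after their values were seen.

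The heterozygous change at E15.5 was set beside that at E11.5, measured in 5 heterozygous and 6 wild-type specimens that share no sample with those at E15.5. In an analysis of all 24 specimens, in which the 5 knockout specimens entered the estimate of the spread, the difference between the 2 changes passed the threshold for 1 of 17362 genes tested (0.00576%). That gene was Esr1, whose log2 fold change was 1.20 at E15.5 and 5.13 at E11.5, a difference of -3.92 ± 0.41 (adjusted p = 3.31e-05). Its mean at E11.5 was 13.2 CPM in heterozygous and 0.345 CPM in wild-type kidneys. Six2 was at -0.93 at both ages. Cited1 was at -1.31 ± 0.15 at E11.5, Crym at -1.25 ± 0.18, Actn3 at -0.90 ± 0.12 and Kazald1 at -1.07 ± 0.25, and for none of these did the difference from E15.5 pass the test.

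Of the 104 genes called at E15.5, 16 were also called at E11.5 in that analysis, in which 61 of 17362 genes (0.351%) were called. With its shared estimate of the spread that analysis called only 13 genes at E15.5, so the 104 and the 61 come from unlike fits. The 16 were Esr1, higher at both ages, and 15 genes lower at both: Six2, Cited1, Crym, Actn3, Clrn1, Ocm, Atp2b2, Dtna, Shisa2, Traf1, Cutal, Sypl2, Sema4g, Moxd1 and Cldn9. The sign at E11.5 was the same for 63 of the 66 lower and 31 of the 38 higher genes, beside 10326 of the 17122 genes tested in both analyses. Pcdh8 was at 0.36 ± 0.10 at E11.5 and Eya1 at 0.07 ± 0.12, and neither was called there. Adh1, an alcohol dehydrogenase of retinoid metabolism, was at 0.69 ± 0.09 at E11.5 and at 0.14 ± 0.08 at E15.5, where it was not called (adjusted p = 0.693). The test of its difference between the ages gave an adjusted p of 1.

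**Figure D4:**
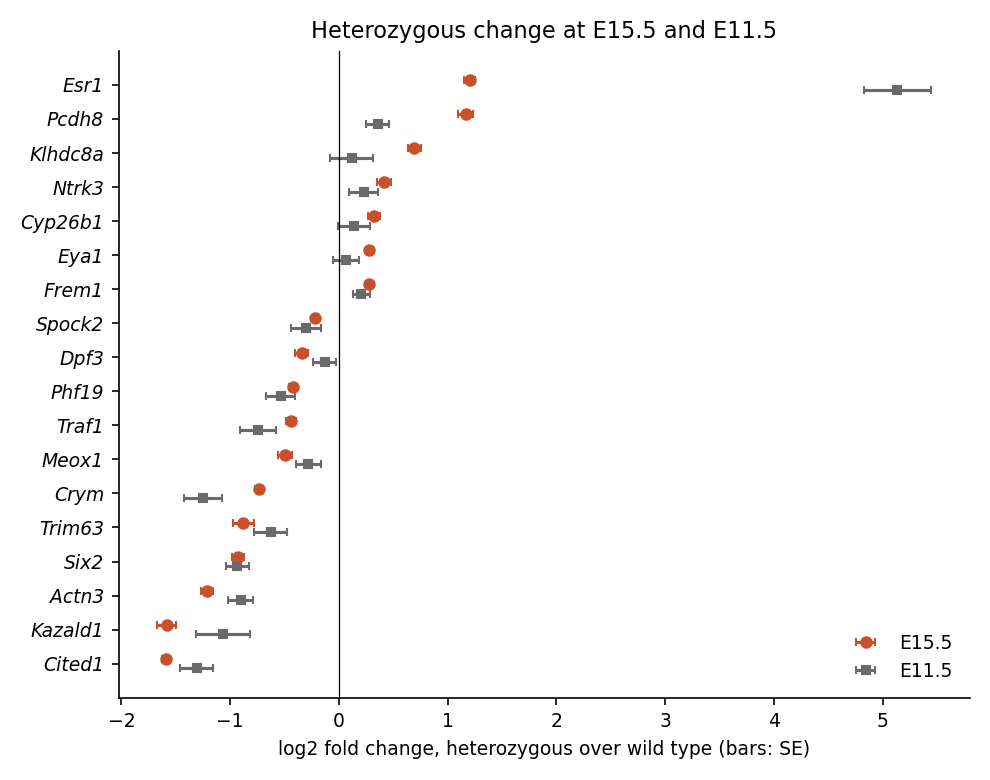
Log2 fold change of heterozygous over wild-type kidneys with its SE (horizontal axis) at E15.5 (red circles, 4 and 4 specimens) and at E11.5 (grey squares, 5 and 6 specimens) for 18 genes. Esr1 stands apart with 1.20 and 5.13; for the other genes the difference between the ages did not pass the test.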

How the data were processed

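RNA was extracted from snap-frozen kidneys with a Qiagen micro kit and made into Illumina libraries, per the labels. The authors deposited raw counts per gene symbol for 35349 symbols; STAR 2.4.0h1, featureCounts 1.4.6 and mm10 are named, per the submitters' processing notes. Annotation and strandedness are not given in the sources used here. All columns had a sample, and 0 were left over. Runs with the same specimen number were summed; after removal of group means, each of 8 first-batch runs correlated best with its own second run (0.288 to 0.781, against at most 0.216).

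Genes were kept by filterByExpr (minimum count 10, minimum total 15), scaled by TMM and tested with edgeR 4.0.16 (R 4.3.3, limma 3.58.1). The test was a quasi-likelihood F test with sex as covariate, Benjamini-Hochberg adjusted over all genes at 0.05. The fit left 5 residual degrees of freedom, and tests and intervals used a larger total after moderation of the spread across genes. SE is the absolute log2 fold change divided by the square root of F. The comparison of stages added batch and all 24 specimens. Scripts were tested on simulated data. Alternatives were DESeq2 1.42.0, its size factors, no filter, sex left out, males alone, each batch alone, a replicate block and leaving out each specimen. Positions are from GENCODE vM21 (32464 symbols matched directly, 838 by an older symbol, 2047 not). Named genes were Six2, Esr1, the 15 largest called rises and 15 largest called falls with a mean of at least 1 CPM, called list members, and 31 regulators whatever their result; some of these genes are not reported here. Members, lists and named genes were chosen with earlier results of these data known. Intervals describe variation between specimens and counting error, nothing else.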

Additional observations from a re-analysis of the deposited data

Results flagged for a closer look

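The change in Esr1 counts differed between the ages by an interaction test over all genes: the log2 difference, E15.5 minus E11.5, was -3.92, with heterozygous kidneys above wild type at both. Among 134 groups of 4 values (67 named genes in each genotype), 5 (3.73%) held a value whose gap to its nearest neighbour, divided by the range of its group, exceeded Dixon's 95% critical value, which chance passes in about 1 of 20 groups. Heterozygous replicate 1 was high for Casq1 (1.44 CPM, the others 1.08 to 1.14) and low for Crym (33.9 CPM, the others 37.3 to 38.0). Heterozygous replicate 3 was low for Cyp26b1 (19.3 CPM, the others 21.1 to 21.2). Wild-type replicate 6, a female specimen, was high for Pcna (229 CPM, the others 216 to 218), and wild-type replicate 5 was low for Tcf23 (2.52 CPM, the others 2.73 to 2.76).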

How the results depend on the processing

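The 104 calls (38 higher, 66 lower) became 155 with DESeq2, 63 of them higher, and 143 with no filter; with the second-batch runs alone they became 43 (15 higher, 28 lower), with the shallower runs and 16010 genes tested, and with the first-batch runs alone 86. Leaving out 1 specimen at a time gave 66 to 79 calls, 21 to 28 higher and 43 to 53 lower, on 1 specimen fewer; the lowest totals were 66, 67 and 69, without wild-type replicates 7 and 8 and heterozygous replicate 3. Six2 stayed between -0.90 and -0.98 and Esr1 between 1.12 and 1.24 in all 16 alternatives. Whether the title numbers 1 to 4 pair the genotypes is not known. Same-numbered specimens correlated at 0.263, -0.280, 0.547 and -0.332, and 1 of 4 correlated best with its own number. Numbers 2 and 4 each join a male and a female specimen, and sex was not removed, so these correlations cannot decide it. A replicate block on the title numbers left 86 calls (33 higher, 53 lower), 73 of them among the 104, Six2 at -0.93 and Esr1 at 1.20. For the 67 named genes, 943 values kept their direction and side of the threshold, 109 lost the call, 1 gained it and 17 changed sign, all in genes that were not called. Alone, first-batch runs gave Sall1 -0.024 and Pcna -0.0045; second-batch runs gave Lhx1 0.024, Foxd1 0.026 and Wt1 0.032; males gave Gdnf -0.032 and Mki67 -0.0063. Without 1 specimen, Sall1 ran from -0.060 to 0.046, Gdnf from -0.035 to 0.045, Mki67 from -0.0094 to 0.056, Foxd1 from -0.098 to 0.0052 and Pcna from -0.0061 to 0.019. The cause of these changes was not tested. The stage difference was called for 1 gene with no filter and with DESeq2 size factors.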

Other observations

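Called genes outside the rule for named genes are given here as values, chosen after they were seen. Shisa2, which restrains the maturation of Wnt and FGF receptors, was at 37.9, 36.6, 39.2 and 39.1 CPM in heterozygous and 52.6, 53.9, 53.6 and 52.9 CPM in wild-type kidneys, without overlap (log2 fold change -0.48 ± 0.03, adjusted p = 6.51e-06). Dcx, the microtubule protein doublecortin, was at -0.61 ± 0.06, Btbd11 at -0.47 ± 0.04, Dtna, a member of the dystrophin-associated complex, at -0.62 ± 0.05, and Moxd1, a relative of dopamine beta-hydroxylase, at -0.35 ± 0.03. Each was called in all 16 alternative analyses. The calcium-binding Ocm averaged 0.457 CPM against 1.31 CPM (-1.53 ± 0.16), and Myoz1, a protein of the muscle Z-disc, 0.459 CPM against 1.03 CPM (-1.16 ± 0.15).

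Among the genes called higher, Frem1, a basement membrane protein of the Fraser complex, was at 501, 512, 512 and 531 CPM in heterozygous and 418, 427, 425 and 427 CPM in wild-type kidneys, without overlap (0.28 ± 0.02, adjusted p = 8.33e-05). Lsp1, an actin-binding protein of leukocytes, was at 0.24 ± 0.02. Rdh10, which makes retinal from retinol, was at 84.2, 86.2, 87.8 and 94.0 CPM against 73.1, 78.8, 74.4 and 73.3 CPM (0.23 ± 0.02, adjusted p = 0.000453). Peg3, an imprinted zinc finger gene, was at 0.16 ± 0.02 (adjusted p = 0.0103).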
